A study of Mus musculus with 9 samples.

Results

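Lungs of C57BL/6 mice were compared between 48 h and 24 h after exosomes (10 µg of protein, given by tail vein) from B16-F10 cells, a melanoma line of mouse origin used to study lung metastasis. Of 9 arrays in the series, 6 belong to this comparison: 3 labelled 24 h and 3 labelled 48 h, chosen by the time stated in the labels, with arrays paired by the replicate number that both times share. The titles of the 48 h samples also carry the words 24 hour in a prefix, and the stated time after injection was taken. The authors' table for the whole series pairs its columns with other files than the sample labels do, so the deposited sources conflict over the assignment of arrays. The analysis name inside each sample file matches its label (24 h, 48 h, and 0 h for controls). The sample files' labels are followed here. The remaining 3 arrays are control lungs, and what those mice received is not given in the labels, which also give no age. The labels state 3 mice at each time point and a triplicate experiment, but not how many mice contributed to each hybridisation, so the p-values below speak of the spread among these RNA samples. The labels give no controls of their own for 24 h and for 48 h, so time since injection and any other difference between the sampling occasions cannot be told apart.

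Exosomes are vesicles shed by cells, able to deliver their cargo of protein and RNA elsewhere. Tumour exosomes that lodge in the lung are known for acting on endothelial cells, fibroblasts and bone marrow derived cells. The processes attributed to them include deposition of extracellular matrix such as fibronectin, recruitment of myeloid cells that express S100a8 and S100a9, and cross-linking of collagen by lysyl oxidase. The comparison asks which lung genes differed between the first and the second day after injection.

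Each array gave a signal intensity for every probe set, taken here as log2 of the signal plus 16 after quantile normalisation, so a difference of 1 is a doubling for bright genes and understates the ratio for dim ones. Of 22690 probe sets, 15649 were detected on all arrays of the 24 h or the 48 h group and were tested, covering 9173 named genes. A gene is given by its brightest tested probe set. Between 69.9% and 72.6% of probe sets were called present on the 9 arrays. Genes of alveolar type 2 cells, which make surfactant, marked the tissue as lung, with a mean log2 intensity of 11.95 to 12.18 over 14 genes. The 3 arrays numbered replicate 1 stood apart from the others in every group on the first principal component, which held 42.5% of the variance (scores of -25.6 to -24.37 against 4.47 to 17.93). Single arrays also stood apart for genes of other tissues: 5 skeletal muscle genes averaged 8.01 in 24 h replicate 1 against 6.00 to 6.71 elsewhere, and 27 cardiac muscle genes averaged 8.37 in 48 h replicate 3 against 8.90 to 9.39.

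No probe set passed the test between the times. With replicate number as a block, limma called 0 of 15649 (0.0%) at an adjusted p under 0.05, and the smallest adjusted p was 0.651. An unadjusted p under 0.05 was found for 867 (5.54%), of which 480 (3.07% of all tested) were higher and 387 (2.47%) lower at 48 h. By gene the unadjusted share was 446 of 9173 (4.86%), and 0 genes (0.0%) passed. Without the replicate block limma also called 0, with 274 at an unadjusted p under 0.05. The gene differences were small: the 5th and the 95th percentile were -0.21 and 0.24 on the log2 scale, and 30 of 9173 genes (0.327%) differed by over 1.5-fold. All values that follow therefore describe these 6 arrays, and none is a called difference. Over all tested genes, 47.5% were higher and 52.5% lower at 48 h (median log2 difference -0.0072), 12.5% were higher in all 3 pairs and 15.4% lower in all 3. The 41 gene lists are read by their counts and medians beside these shares.

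**Figure D1:**
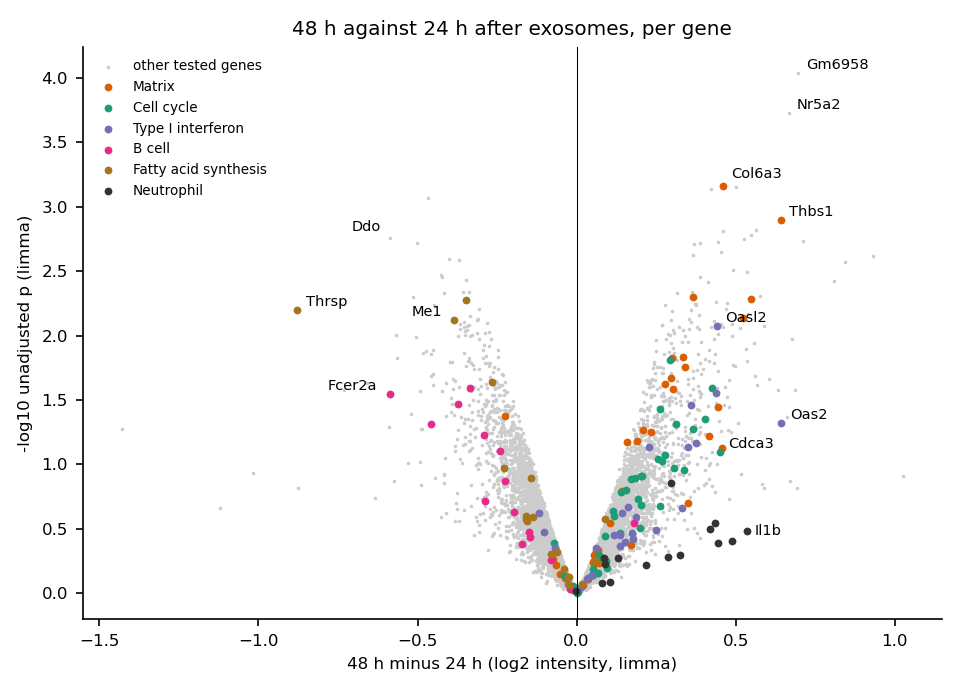
Difference between 48 h and 24 h (log2 intensity, horizontal) against -log10 of the unadjusted limma p (vertical) for 9173 genes, with members of 6 gene lists in colour. Most matrix, cell cycle and interferon genes lie right of 0 and most fatty acid and B cell genes left of it, with no gene past the adjusted threshold (smallest adjusted p 0.651).

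Extracellular matrix genes had the closest pair medians of the 41 lists. Of 35 tested genes, 30 were higher at 48 h, with a median log2 difference of 0.190 and medians of 0.159, 0.160 and 0.158 in pairs 1, 2 and 3. All 3 pairs were higher for 20 of the 35, where 12.5% of all genes were, and 12 had an unadjusted limma p under 0.05 on the higher side, where 2.63% of all genes did. None passed after adjustment. Of the 39 listed genes, 4 were not tested: Thbs2 did not meet the detection rule, and Fbn1, Spp1 and Loxl2 matched no probe set by symbol.

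Col6a3 encodes a chain of type VI collagen, which forms beaded filaments around cells. Its log2 intensities were 10.46, 10.32 and 10.31 at 24 h and 10.86, 10.79 and 10.82 at 48 h. The control arrays, at 10.56, 10.62 and 10.41, were below every 48 h array, and control replicate 3 lay within the 24 h range. The 48 h arrays were all above the 24 h arrays, and the difference was 1.37-fold (95% CI 1.20 to 1.58, adjusted p = 0.744 by limma). Thbs1, the gene of thrombospondin, an adhesive glycoprotein that binds matrix and activates latent TGF-beta, read 8.84, 8.69 and 8.85 at 24 h and 9.47, 9.15 and 9.69 at 48 h. These groups did not overlap either (1.56-fold, 95% CI 1.27 to 1.93, adjusted p = 0.766 by limma), and a second probe set had a log2 difference of 0.50. Control values of Thbs1 were 9.16, 8.76 and 8.74, of which replicate 1 was level with the lowest 48 h array.

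Col1a1, the main chain of type I collagen, read 9.51, 9.32 and 9.32 at 24 h and 10.29, 10.07 and 9.44 at 48 h. Replicates 1 and 2 separated widely while the pair of replicate 3 differed by 0.12, and the groups overlapped. Controls read 9.75, 9.83 and 9.52, above every 24 h array and above 48 h replicate 3. The fold was 1.46 (95% CI 1.16 to 1.84), and a second probe set had a log2 difference of 0.76. Lox, the enzyme that cross-links collagen and elastin, read 9.59, 8.79 and 8.66 at 24 h and 10.08, 8.95 and 9.11 at 48 h. The replicate 1 arrays were the brightest at both times and in controls (9.54, 8.71 and 8.57), so the groups overlapped although each pair was higher at 48 h (1.29-fold, 95% CI 1.11 to 1.50).

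Among the other collagens, named after their values were seen, Col3a1 and Col5a2 were each at 1.23-fold, Col18a1 at 1.27-fold and Col5a1 at 1.26-fold, each higher in all 3 pairs. Among genes of basement membrane proteins, Col4a1 was at 1.12-fold, the laminin chain Lamc1 at 1.21-fold and the linker protein gene Nid1 at 1.18-fold. The matricellular gene Ccn1 was at 1.44-fold. Decorin, a small proteoglycan that binds collagen fibrils, went the other way in all 3 pairs (Dcn, 0.855-fold). Col1a2, which encodes the partner chain of Col1a1, was at 1.05-fold.

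Smooth muscle genes, whose cells also make matrix, had a median of 0.114 with 11 of 11 higher and pair medians of 0.082, 0.028 and 0.218. Their median was 0.064 with 8 of 11 higher without 48 h replicate 3, 0.076 with 10 of 11 without 24 h replicate 3, 0.055 with 8 of 11 without all arrays numbered 3 and 0.179 without all numbered 2. The mean level of that list was 9.51 to 10.05 at 24 h and 9.72 to 10.16 at 48 h. In whole lung, more cells of a type and more RNA per cell cannot be told apart, here or for the cell type lists below. The part of smooth muscle content in the matrix values was not tested. Leaving out any array or replicate number kept 29 to 31 of the 35 matrix genes higher, with medians of 0.140 to 0.204.

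**Figure D2:**
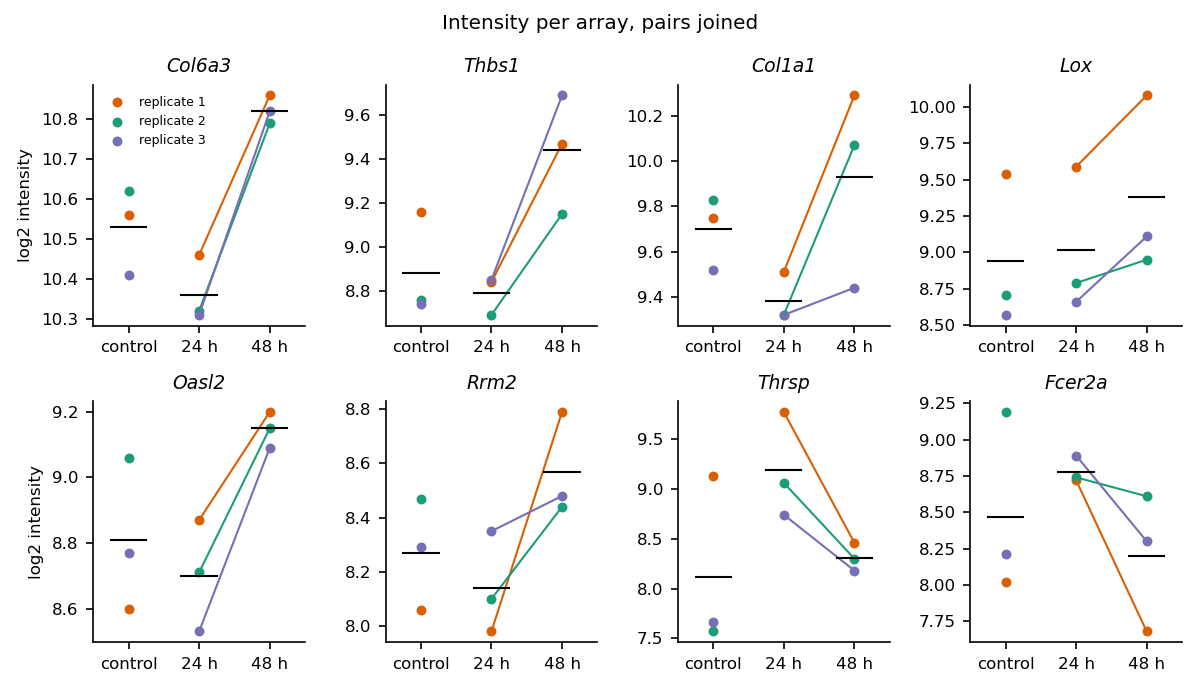
Log2 intensity of 8 genes on each of the 9 arrays, with the 24 h and 48 h arrays of a replicate number joined and black bars at group means. All 3 lines run upward for Col6a3, Thbs1, Col1a1, Lox, Oasl2 and Rrm2 and downward for Thrsp and Fcer2a.

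Type I interferon genes are switched on when interferon binds its receptor, and many carry the interferon-stimulated response element in their promoters. Of 26 tested genes, 22 were higher at 48 h, with a median log2 difference of 0.156 and pair medians of 0.123, 0.114 and 0.172. All 3 pairs were higher for 11 of the 26, where 12.5% of all genes were. An unadjusted limma p under 0.05 on the higher side was found for 4, where 2.63% of all genes had one. None passed after adjustment. Without 48 h replicate 1 the median was 0.09 with 18 of 26 higher.

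Oasl2, an antiviral member of the oligoadenylate synthetase family, read 8.87, 8.71 and 8.53 at 24 h and 9.20, 9.15 and 9.09 at 48 h. The groups did not overlap, and the controls, at 8.60, 9.06 and 8.77, lay below every 48 h array (1.36-fold, 95% CI 1.11 to 1.66). Rsad2, which encodes the antiviral enzyme viperin, read 9.12, 8.22 and 8.18 at 24 h and 9.36, 8.79 and 8.68 at 48 h. Here 24 h replicate 1 was above both other 48 h replicates, so the groups overlapped while every pair was higher (1.35-fold, 95% CI 1.04 to 1.76). The other 2 Rsad2 probe sets had log2 differences of 0.44 and 0.42. Its genomic neighbour Cmpk2, a nucleotide kinase, was at 1.28-fold (1.02 to 1.61). Oas2, which senses double-stranded RNA, was at 1.56-fold (1.01 to 2.43), resting mostly on pair 2 with a log2 difference of 1.39 where pairs 1 and 3 gave 0.36 and 0.19. With an offset of 64 its log2 difference of 0.64 was 0.36.

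The response element core was looked for in the 250 bases upstream of the starts listed by RefSeq for GRCm38.p6, as GAAA, any 2 bases and GAAA again, on either strand. A window existed for 17 of the 26 tested interferon genes, and 7 of these held the core (41.2%), where 248 of 7420 tested genes with a window did (3.34%). Matches in the promoters of 4 genes are shown on the gene strand, each with a core in capitals. This element is what many genes of the list are known to share. The Ifit1 stretch holds a further core in lower case, and the Oas1a stretch holds one that overlaps the capitals:
Rsad2: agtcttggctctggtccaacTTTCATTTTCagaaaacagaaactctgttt
Ifit1: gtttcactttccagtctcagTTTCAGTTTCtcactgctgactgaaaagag
Stat2: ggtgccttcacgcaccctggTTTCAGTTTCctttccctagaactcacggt
Oas1a: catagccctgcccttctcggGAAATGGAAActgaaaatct

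They lie at chr12:26456543-26456592 on the minus strand (Rsad2), chr19:34640784-34640833 on the plus strand (Ifit1), chr10:128270256-128270305 on the plus strand (Stat2) and chr5:120907526-120907565 on the minus strand (Oas1a). A match describes the letters and does not show a bound site. The genes that carry these cores did not share 1 size of difference: beside Rsad2 at 1.35-fold, Ifit1 was at 1.11-fold, Oas1a at 1.13-fold and Stat2 at 1.03-fold. Ifit3, which also holds the core in its window, was at 0.981-fold. Bst2 and Trim30a hold it too and are not compared here.

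Genes induced mainly by interferon gamma, among them the immunity GTPases that attack vacuoles of intracellular microbes, had a smaller median of 0.028 over 18 genes and pair medians of -0.126, 0.028 and 0.303. The pairs differed in sign, and 13 of the 18 were higher. Without 24 h replicate 3 the median was -0.032 and without 48 h replicate 3 it was -0.025, with 6 and 7 of 18 higher. Class I and class II MHC genes had a median of 0.024 over 12 genes.

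Cell cycle genes, which mark dividing cells, were higher at 48 h in 37 of 42 cases, with a median log2 difference of 0.148. Pair medians were 0.230, 0.033 and 0.130, so pair 2 contributed least. All 3 pairs were higher for 21 of the 42, where 12.5% of all genes were. The groups did not overlap, with 48 h above, for 9 of the 42, where 2.35% of all genes showed that. An unadjusted limma p under 0.05 was found for 5 on the higher side, where 2.63% of all genes had one, and none passed after adjustment.

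Rrm2, the ribonucleotide reductase subunit made in S phase, read 7.98, 8.10 and 8.35 at 24 h and 8.79, 8.44 and 8.48 at 48 h. Its groups were apart, with control arrays at 8.06, 8.47 and 8.29 (1.34-fold, 95% CI 1.05 to 1.72). Cdc20, an activator of the anaphase-promoting complex, read 8.18, 8.22 and 8.19 at 24 h and 8.64, 8.69 and 8.48 at 48 h. Control replicates 2 and 3, at 8.51 and 8.48, reached the range of the 48 h arrays and replicate 1 read 7.75 (1.32-fold, 95% CI 1.01 to 1.74). The mitotic kinesin Kif22 was at 1.22-fold (1.05 to 1.43) and Mcm2, a subunit of the replicative helicase, at 1.20-fold (1.01 to 1.42), both with groups apart. Second probe sets of these 4 genes had log2 differences of 0.19 for Rrm2, 0.15 for Cdc20, 0.26 for Kif22 and 0.11 for Mcm2, each smaller than that of the brighter probe set.

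The proliferation marker Mki67, named after its values were seen, was at 1.21-fold with pair differences of 0.60, 0.20 and 0.03. Pcna, the replication clamp, was at 0.952-fold and lower in all 3 pairs. Without 48 h replicate 1 the list's median was 0.098 with 30 of 42 genes higher, and without the replicate 1 arrays of all groups it was 0.113 with 29 of 42.

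**Figure D3:**
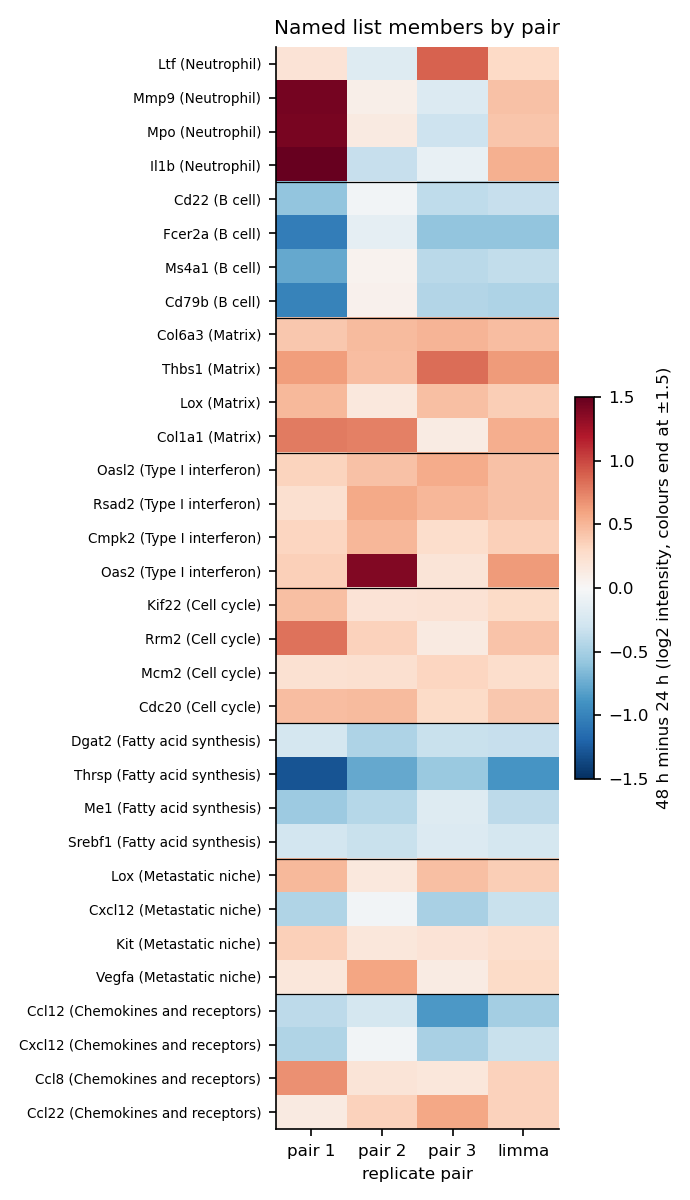
Difference between 48 h and 24 h within each replicate pair and as the limma estimate (log2 intensity, colour) for up to 4 genes of each of 8 lists. Matrix, interferon and cell cycle rows are red in every pair, whereas the neutrophil rows other than Ltf are dark red in pair 1 alone, with limma estimates between 0.42 and 0.53.

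Genes of fatty acid synthesis were lower at 48 h. This pathway builds malonyl-CoA and long-chain fatty acids, and in lung it serves the surfactant lipids of alveolar type 2 cells as well as resident fat cells. Of 19 tested genes, 16 were lower, with a median log2 difference of -0.138 and pair medians of -0.238, -0.053 and -0.067. All 3 pairs were lower for 6 of the 19, where 15.4% of all genes were, and 4 had an unadjusted limma p under 0.05 on the lower side, where 2.23% of all genes did. The 48 h arrays were all below the 24 h arrays for 4 of the 19, where 2.01% of all genes showed that. None passed after adjustment.

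Thrsp, a nuclear regulator of lipogenic genes, read 9.77, 9.06 and 8.74 at 24 h and 8.46, 8.30 and 8.18 at 48 h. The groups did not overlap (0.544-fold, 95% CI 0.371 to 0.797, adjusted p = 0.766 by limma), and the second Thrsp probe set had a log2 difference of -0.98. Controls read 9.13, 7.57 and 7.66, so replicates 2 and 3 of the controls were below every exosome array. Me1, the malic enzyme that supplies NADPH, read 10.13, 10.23 and 9.82 at 24 h and 9.59, 9.80 and 9.64 at 48 h, again without overlap (0.765-fold, 95% CI 0.643 to 0.910). Srebf1, the transcription factor that drives the pathway, was at 0.832-fold (0.716 to 0.968) with groups apart. Dgat2, which completes triglyceride synthesis, was at 0.786-fold (0.680 to 0.909) with groups overlapping. The second probe sets of Me1 and Dgat2 had smaller log2 differences, of -0.18 and -0.12.

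The synthase gene itself, Fasn, was at 1.01-fold, and the desaturase genes Scd1 and Scd2 were at 0.983-fold and 0.981-fold, so the lower values lay with some members of the pathway. Adipocyte genes, a list that shares Thrsp and Scd1 with this one, had a median of -0.033 over 15 genes that ranged from -0.169 to 0.016 as arrays were left out, and their mean level was 8.91 to 9.05 at 24 h and 8.86 to 8.89 at 48 h. Alveolar type 2 genes had a median of 0.014. Cholesterol synthesis genes had a median of -0.058 over 19 genes but pair medians of -0.251, -0.015 and 0.132, which differ in sign. The fatty acid median was -0.058 without 24 h replicate 2, -0.057 without 48 h replicate 1 and -0.065 when all arrays numbered 1 were left out, with 3, 7 and 6 of 19 genes higher.

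B cell genes were lower at 48 h in 14 of 15 cases, with a median log2 difference of -0.223. Pair medians were -0.556, 0.067 and -0.227, so pair 2 did not share the direction. An unadjusted limma p under 0.05 was found for 4 genes on the lower side, where 2.23% of all genes had one. Of the 15, 4 were lower in all 3 pairs, where 15.4% of all genes were, and none passed after adjustment. The list's mean level was 8.18, 8.06 and 8.17 on the 24 h arrays and 7.63, 8.18 and 7.93 on the 48 h arrays, against 7.82, 8.43 and 8.16 in controls. The lowest values were those of 48 h replicate 1 and control replicate 1.

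Fcer2a, the low-affinity IgE receptor of mature B cells, read 8.72, 8.74 and 8.89 at 24 h and 7.68, 8.61 and 8.30 at 48 h. Its groups did not overlap (0.666-fold, 95% CI 0.469 to 0.946). Controls spread widely, at 8.02, 9.19 and 8.21, from within the 48 h range to above every 24 h array. Cd79b, a signalling subunit of the antigen receptor, was at 0.728-fold (0.532 to 0.998), Ms4a1, which encodes CD20, at 0.773-fold (0.613 to 0.975) and the inhibitory coreceptor Cd22 at 0.793-fold (0.652 to 0.964). Their second probe sets pointed the same way, at log2 differences of -0.21 for Fcer2a, -0.32 for Ms4a1 and -0.19 for Cd22. The exception in the list was Cd72, at 1.13-fold.

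T cell genes had a median of -0.110 over 15 genes with 11 lower, but pair medians of -0.203, -0.025 and 0.006. That median was -0.05 without 48 h replicate 1, -0.072 without 24 h replicate 1 and -0.046 without both and the control numbered 1. Ccr7, the homing receptor of naive lymphocytes and named after its values were seen, was at 0.827-fold and lower in all 3 pairs. Plasma cell and immunoglobulin genes had a median of 0.065 over 8 genes. The B cell median was -0.042 without 24 h replicate 1, -0.374 without 24 h replicate 2, -0.148 without 48 h replicate 1, -0.04 without all arrays numbered 1 and -0.379 without all numbered 2.

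Neutrophil genes had the largest median of the lists with 8 or more tested genes, at 0.287 with 14 of 15 higher, and it rested on 1 array. The list's mean level was 10.39 in 48 h replicate 1, whereas the other 8 arrays lay between 8.72 and 9.35. Pair medians were 1.200, -0.165 and -0.208, and no member was higher in all 3 pairs. Without 48 h replicate 1 the median was -0.292 with 1 of 15 genes higher, while dropping every array numbered 1 gave -0.172 with 3 of 15. The median was 0.149 without 24 h replicate 1, 0.592 without 48 h replicate 2, 0.45 without 48 h replicate 3 and 0.479 without all arrays numbered 3.

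S100a8 and S100a9 encode the subunits of calprotectin, the calcium-binding protein of neutrophils. S100a8 read 12.35, 11.41 and 12.01 at 24 h and 13.55, 11.49 and 11.59 at 48 h. The groups overlapped and the interval was wide (1.22-fold, 95% CI 0.611 to 2.44, adjusted p = 0.938 by limma). S100a9 read 12.16, 11.44 and 11.74 at 24 h and 13.37, 11.15 and 11.14 at 48 h (1.08-fold, 95% CI 0.527 to 2.20).

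Il1b, an inflammatory cytokine, read 7.95, 7.19 and 7.21 at 24 h and 10.01, 6.85 and 7.09 at 48 h. Mpo, the myeloperoxidase of primary granules, had pair differences of 1.42, 0.14 and -0.31 and the gelatinase gene Mmp9 differences of 1.43, 0.09 and -0.21. Ltf, which encodes the granule protein lactoferrin and is also made by airway epithelium, followed another pattern, with 0.20, -0.19 and 0.88. Of the 24 listed neutrophil genes, 9 were not tested: Elane, Prtn3, Ctsg, Cxcr2, Il1r2 and Trem1 did not meet the detection rule, and Retnlg, Ly6g and Fpr1 matched no probe set by symbol.

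**Figure D4:**
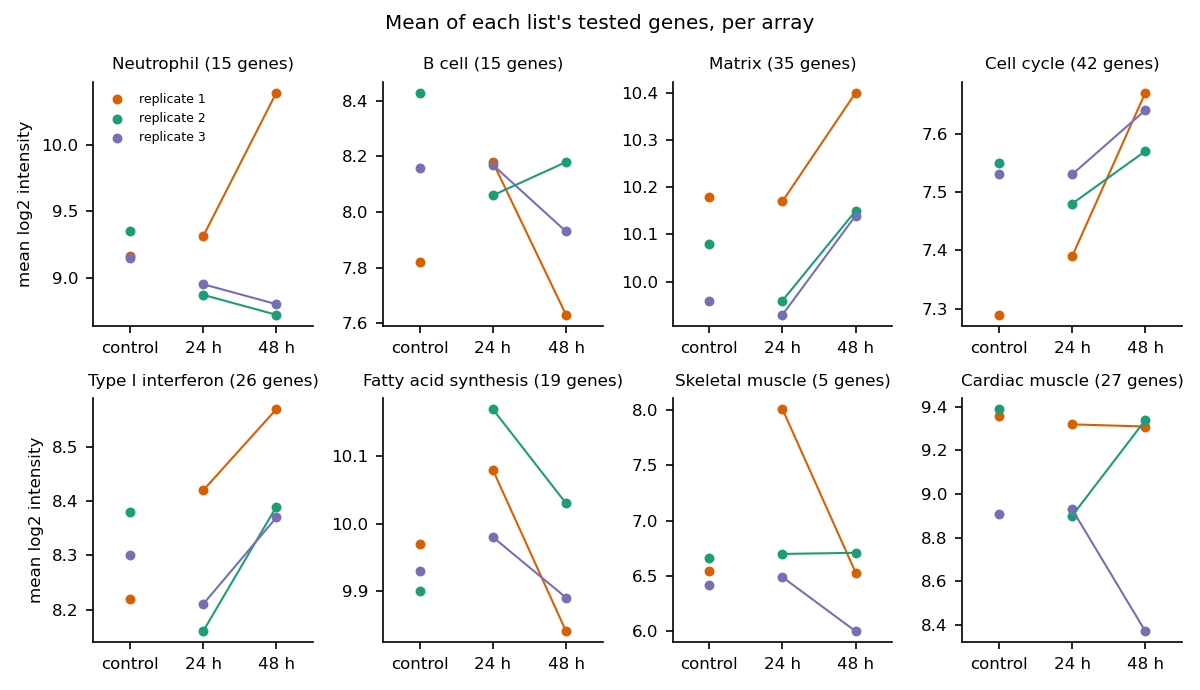
Mean log2 intensity over the tested genes of 8 lists on each array, with the 24 h and 48 h arrays of a replicate number joined. The neutrophil mean of 48 h replicate 1, at 10.39, and the skeletal muscle mean of 24 h replicate 1, at 8.01, lie apart from all other arrays, whereas the 3 matrix lines run upward in parallel.

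Of 14 tested genes tied to metastatic niches, 12 were higher at 48 h with a median of 0.123. The pair medians were 0.160, 0.084 and 0.111. With the mean of a gene's tested probe sets in place of the brightest, 9 of 14 were higher and the median was 0.086. Dropping 48 h replicate 1 gave a median of 0.065 with 8 of 14 higher, dropping every array numbered 1 gave 0.079 with 9 of 14, and dropping 48 h replicate 2 gave 0.211. Lox, described above, had the smallest p of this list. Next came Cxcl12, a member that went against the majority and was lower in all 3 pairs (0.798-fold, 95% CI 0.671 to 0.948). Kit, the stem cell factor receptor, read 10.94, 10.67 and 11.04 at 24 h and 11.30, 10.84 and 11.25 at 48 h. Each pair was higher while the groups overlapped (1.19-fold, 95% CI 0.957 to 1.47).

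Vegfa, the vascular growth factor, read 10.92, 10.20 and 11.41 at 24 h and 11.09, 10.79 and 11.53 at 48 h (1.22-fold, 95% CI 0.938 to 1.60). A second Vegfa probe set had the opposite sign, at a log2 difference of -0.42. The brightest probe set of Fn1, which encodes fibronectin, was at 1.10-fold (0.952 to 1.28), and a dimmer probe set had a log2 difference of 0.50. Neither Tnf, an inflammatory cytokine, nor Met, the receptor of hepatocyte growth factor, met the detection threshold on any array (0 of 9): raw signals spanned 3.1 to 35.9 for Tnf and 16.8 to 41.6 for Met.

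Chemokines and their receptors had a median of 0.116 over 24 tested genes, 15 of them higher, and the members went both ways. Cxcl12, which retains progenitor cells in their niches, read 10.77, 10.59 and 10.49 at 24 h and 10.32, 10.55 and 10.00 at 48 h. Every pair was lower while the groups overlapped (0.798-fold, 95% CI 0.671 to 0.948), with control arrays at 10.68, 10.77 and 10.55 and a second probe set at a log2 difference of -0.11. Ccl12, which recruits monocytes, was at 0.705-fold (0.554 to 0.896) with groups apart, and its log2 difference of -0.51 was -0.31 with an offset of 64. On the higher side were Ccl8, which also recruits monocytes, at 1.27-fold (1.05 to 1.55), and Ccl22, which attracts regulatory T cells, at 1.27-fold (1.01 to 1.60). The median was -0.029 without 48 h replicate 1, with 11 of 24 higher, and 0.039 without the replicate 1 arrays.

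**Figure D5:**
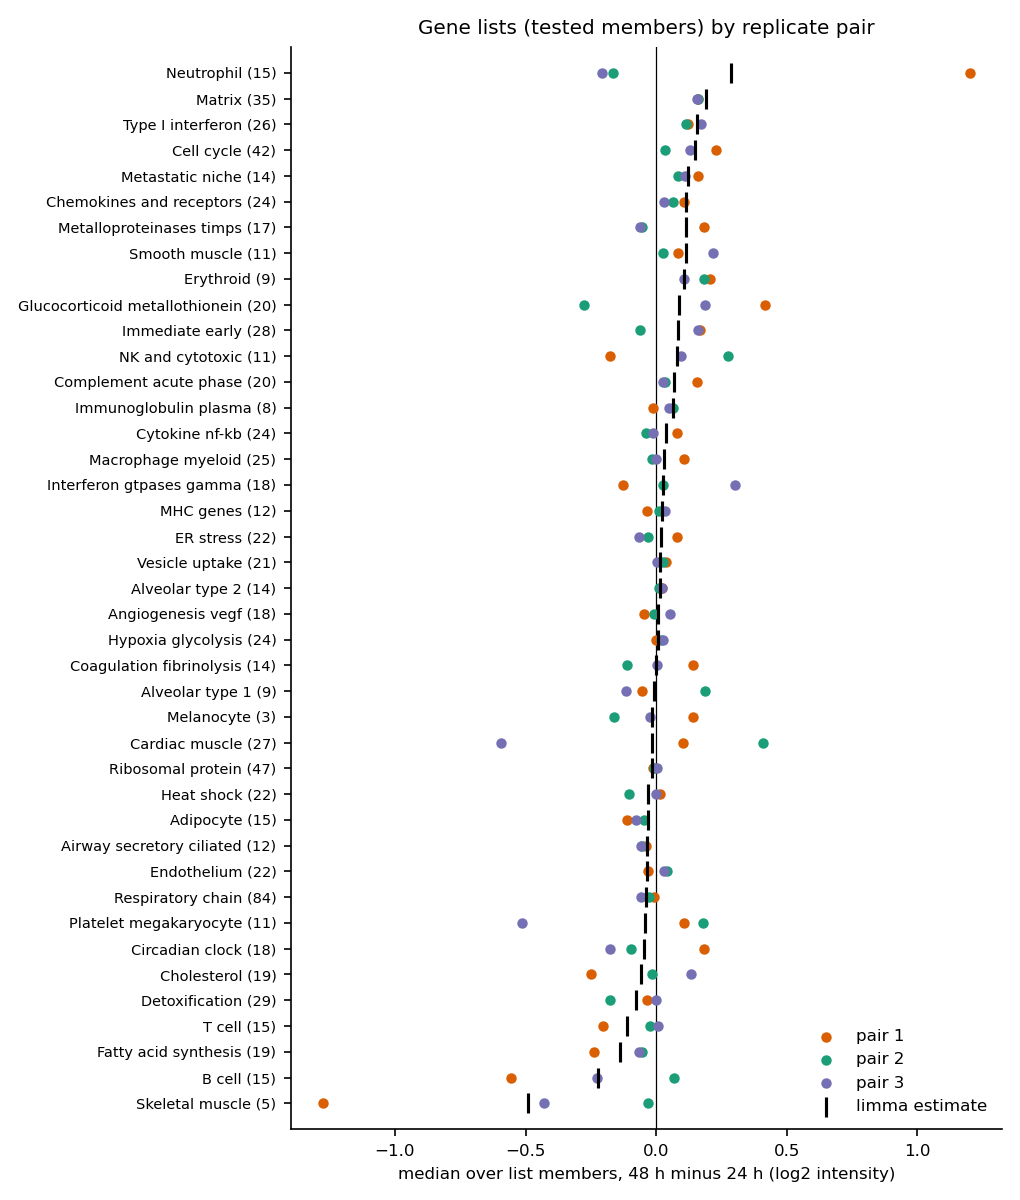
Median difference between 48 h and 24 h (log2 intensity) over the tested members of 41 gene lists, within each replicate pair (points) and as the limma estimate (vertical ticks). The 3 points coincide for the matrix list near 0.16, lie between 0.114 and 0.172 for the interferon list and spread from -0.208 to 1.200 for the neutrophil list.

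Ranked by limma p among genes with the same sign in all 3 pairs, the first 6 higher genes were Gm6958, Nr5a2, Col6a3, Pcdhb19, Ncapd2 and Thbs1, and none passed. Gm6958, a predicted gene, read 5.70, 6.59 and 6.73 at 24 h and 6.29, 7.32 and 7.50 at 48 h (1.62-fold, 95% CI 1.39 to 1.89, adjusted p = 0.651 by limma). Its arrays followed the replicate number, with overlap between the groups, and a second probe set had a log2 difference of 0.02. Nr5a2, a nuclear receptor known for its role in liver and pancreas, read 5.03, 5.53 and 5.40 at 24 h and 5.78, 6.24 and 5.93 at 48 h, apart but dim (1.59-fold, 95% CI 1.35 to 1.87). Pcdhb19, a clustered protocadherin of cell contacts, was at 1.42-fold (1.22 to 1.64). Since detection was required at 1 time only, the dim Nr5a2 and Pcdhb19 can have entered through the 48 h arrays alone. Ncapd2, a subunit of the condensin complex that compacts mitotic chromosomes, was at 1.34-fold (1.18 to 1.52) and is not a member of the cell cycle list. Its groups overlapped, and its controls read 6.92, 7.52 and 7.42 beside 7.06, 7.56 and 7.49 at 48 h. For the dim genes the size depended on the offset: with 64 in place of 16 the log2 difference of Nr5a2 was 0.34 in place of 0.67 and that of Pcdhb19 0.27 in place of 0.50.

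The first 6 lower genes were Igkv5-39, Ddo, Cpsf4, Wdr46, Mrm1 and Map3k8, of which none passed. Igkv5-39, a kappa light chain variable segment, read 5.19, 5.39 and 5.09 at 24 h and 4.77, 4.76 and 4.74 at 48 h, near the dim end of the scale (0.723-fold, 95% CI 0.627 to 0.835, adjusted p = 0.744 by limma). Since detection was required at 1 time only, its probe set can have entered through the brighter 24 h arrays alone. At which time it was detected is not given here. Ddo, which encodes D-aspartate oxidase, read 6.98, 6.90 and 6.88 at 24 h and 6.59, 6.16 and 6.25 at 48 h. Its groups were apart (0.665-fold, 95% CI 0.543 to 0.815), with controls at 6.48, 6.49 and 6.78. With an offset of 64 the log2 difference was -0.39 in place of -0.59 for Ddo and -0.19 in place of -0.47 for Igkv5-39, and with an offset of 1 it was -0.89 for Igkv5-39. Cpsf4, a subunit of the factor that cleaves mRNA before polyadenylation, was at 0.706-fold (0.592 to 0.842). Wdr46, a nucleolar protein gene, was at 0.758-fold, Mrm1, a methyltransferase of mitochondrial ribosomal RNA, at 0.775-fold and Map3k8, a kinase downstream of Toll-like receptors, at 0.744-fold.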

How the data were processed

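Total RNA of whole lung was amplified, labelled with biotin and hybridised to Affymetrix GeneChips, per the labels' protocols. The deposited sample files hold, per the file headers, a signal intensity and a detection p-value for each probe set. The authors scaled the intensity of each array (trimmed mean of 500.1 to 500.2); the sources used here name no software, background correction or summary method. Each column of the authors' table for the whole series matched a sample file labelled differently (22417 or more of 22690 probe sets within 0.051 signal units), and the sample files, whose labels were followed, were used. The analysis name inside each sample file matches that file's label, and which source is right was not settled beyond this. A blank row inside the file of 24 h replicate 2 was skipped.

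The files list 22690 probe sets, fewer than the chip named in the labels would hold. The 64 control probe sets were left out. Signals were raised by 16, taken to log2 and quantile normalised over 9 arrays. Probe sets with detection p under 0.05 on all arrays of the 24 h or 48 h group entered a linear model in limma (version 3.58.1, R 4.3.3; a mean per group, replicate number as a block, 9 arrays, two-sided, Benjamini-Hochberg adjustment over all 15649, threshold 0.05). The number of arrays limits the precision. Same-numbered arrays deviated together from their group means: the correlation was 0.276 to 0.664 over 9 pairs of arrays, and 0.576, 0.556 and 0.449 for the 3 pairs used here. Deviations of control replicate 3 also correlated with those of replicate 2 at 24 h (0.314) and at 48 h (0.283), so not every such value followed the number. The replicate numbers come from the labels.

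Gene names came from the platform annotation (20393 probe sets with 1 symbol, 691 with several and unnamed, 1606 with none listed), and promoters from RefSeq. Members and lists were chosen with earlier results of these data known, so no list was tested. Named genes were the 6 highest and 6 lowest by p with 1 sign in all pairs, up to 4 with the smallest p from the 8 lists with the largest medians (8 or more tested genes), and 9 fixed genes.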

Additional observations from a re-analysis of the deposited data

How the results depend on the processing

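The count of called probe sets was 0 in each direction under all 19 other fits, among them those without the replicate block, with it as a random effect, with other offsets, filters or scaling, on the 6 exosome arrays alone, and without each array or replicate number. Apart from the series table's labels, fits that kept every array turned no named gene's sign, though an offset of 1 or 64 moved the size for 6 dim genes by over 1.5 times (Igkv5-39, Nr5a2, Pcdhb19, Ddo, Oas2 and Ccl12, values above). Leaving out arrays turned the sign of 5 neutrophil genes, through 24 h replicate 1 for S100a9 alone and through 48 h replicate 1 or all replicate 1 arrays for each of the 5. Their log2 differences then ranged from -0.34 to 0.63 for S100a8, -0.59 to 0.45 for S100a9, -0.17 to 0.77 for Mmp9, -0.16 to 0.79 for Mpo and -0.31 to 1.05 for Il1b. The fatty acid median of -0.138 was -0.092 with an offset of 64 and -0.081 over genes detected on all 9 arrays. With the labels of the authors' series table, 48 h against 24 h sets the 24 h files against the control files, 2 of which also carry each other's number, so other samples are compared. There the sign turned for 37 of the 42 named genes with a value. The 24 h arrays enter the 2 comparisons with opposite sign. Most named genes were picked by their p in the main comparison, so a turned sign is partly built in. Values on the log2 scale were Gm6958 -0.52, Nr5a2 -0.42, Col6a3 -0.17, Ncapd2 -0.34, Thbs1 -0.09, Igkv5-39 0.16, Ddo 0.34, Cpsf4 0.22, Wdr46 0.17 and Mrm1 0.27. Neutrophil genes read Ltf -0.18, Mmp9 -0.21, Mpo -0.43, Il1b -0.26, S100a8 -0.37 and S100a9 -0.27. Others read Cd22 0.00, Fcer2a 0.31, Ms4a1 0.00, Col1a1 -0.32, Fn1 -0.02, Oasl2 -0.11, Rsad2 -0.02, Cmpk2 -0.10, Oas2 -0.77, Kif22 -0.07, Rrm2 -0.13, Mcm2 -0.28, Cdc20 -0.05, Dgat2 0.18, Thrsp 1.07, Me1 0.14, Srebf1 0.29, Kit -0.11, Vegfa -0.23, Ccl12 0.05 and Ccl8 -0.16. Dim probe sets limit what the arrays show, since detection was required at 1 time only.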

Other observations

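Several other gene groups had pair medians of opposite sign. Cardiac muscle genes had pair medians of 0.102, 0.408 and -0.595 over 27 genes, with no member of 1 sign in all 3 pairs, and platelet genes 0.107, 0.180 and -0.514 over 11 genes. Genes that respond to glucocorticoids and metals had a median of 0.089 with 16 of 20 higher, but pair medians of 0.415, -0.277 and 0.186, and a median of -0.037 without 24 h replicate 1, -0.006 without 48 h replicate 1, 0.227 without 24 h replicate 2 and 0.277 without 48 h replicate 2. Circadian clock genes had a median of -0.047 over 18 genes and pair medians of 0.183, -0.098 and -0.176. Immediate early genes, which respond within minutes to hours of stimulation, were higher in 23 of 28 cases (median 0.084), with a pair 2 median of -0.061. Their median was 0.007 with 15 of 28 higher without 24 h replicate 1, 0.032 with 16 of 28 without 48 h replicate 3 and 0.177 without 48 h replicate 2.

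Respiratory chain genes were lower in 56 of 84 cases, with a small median of -0.039 and pair medians of -0.010, -0.026 and -0.057, and 23 of the 84 were lower in all 3 pairs, where 15.4% of all genes were. Without 48 h replicate 3 the median was -0.018 with 46 of 84 lower, and without all arrays numbered 3 it was -0.014 with 45 of 84. All 9 tested erythroid genes were higher (median 0.106, pair medians 0.206, 0.184 and 0.106), but the count was 5 of 9 without 24 h replicate 2 (median 0.045) and 7 of 9 without 48 h replicate 3 (0.022) or 24 h replicate 3 (0.226). The median was also over 1.5 times larger without either array numbered 1 (0.176 without that of 24 h and 0.163 without that of 48 h). Ribosomal protein genes had a median of -0.016 over 47 genes and endothelial genes one of -0.036 over 22. Of 12 listed melanocyte genes, 3 were tested, and their median was -0.014.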
